A study of Mus musculus with 4 samples.

Results

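The 10 genes described here encode transcription factors of the trophectoderm, the outer cell layer of the blastocyst that forms the placenta: Cdx2, Eomes, Gata2, Gata3, Tfap2a, Tfap2c, Hand1, Tead4, Ets2 and Elf5. They were chosen by symbol from known biology, with earlier results of these data known. All 22 probe sets annotated to 1 of these symbols alone were read, out of 34945 probe sets that name 18193 genes in all. The data were signals from 4 Affymetrix arrays, each hybridised with total RNA of a single culture of the mouse embryonic stem (ES) cell line E14.1. The groups were cells labelled Sall4-null (delta/-, line KO1) on feeder cells, Sall4 heterozygous cells (flox/-, line HET18) on feeder cells, KO1 cells without feeders and HET18 cells without feeders. Blasticidin and the cytokine LIF were in the medium of every culture, and every line carried a blasticidin-resistance gene targeted to Oct3/4, so that cells expressing Oct3/4 survived. Feeders were blasticidin-resistant fibroblasts, and cultures without feeders grew on gelatin. Each genotype was 1 line and each group 1 array, so there was no spread between replicates, and a difference between genotypes cannot be told apart from one between lines.

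In the early mouse embryo, TEAD4 works with the coactivator YAP in outer cells to turn on Cdx2 and Gata3, and CDX2 and OCT3/4 oppose each other as cells choose between trophectoderm and inner cell mass. EOMES, ELF5, ETS2 and TFAP2C are then needed for trophoblast stem cells, while HAND1, GATA2 and TFAP2A act as trophoblast cells differentiate. SALL4 is a zinc finger factor of ES cells that is known to repress trophectoderm genes such as Cdx2, and the arrays address what happens to these genes in cells labelled null, with and without feeders.

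Median signals of the arrays lay between 16.1 and 18, and actin signals at the 3' end over those at the 5' end between 1.22 and 1.29. The signals came without detection calls, so whether a low signal was above background is unknown; a signal of 9.46, the lower limit for testing a gene, serves as a mark. Sall4 itself read higher in cells labelled null on both probe sets: the brighter one, 1424152_at, had signals of 1452 in null-labelled and 780.8 in heterozygous cells on feeders, and of 1670 in null-labelled and 1126 in heterozygous cells without feeders. Neither the deleted part of the gene nor the place of these probe sets is given in the sources used here, so the direction of every genotype difference below rests on the labels alone. Pou5f1, which encodes OCT3/4 and marks ES cells, read 1187 in null-labelled and 1112 in heterozygous cells on feeders, against 977 in null-labelled and 1284 in heterozygous cells without feeders. Fibroblast RNA was present where feeders were: the summed signal of 25 fibroblast markers was 30415 in null-labelled and 22504 in heterozygous cells on feeders, against 7536 in null-labelled and 3421 in heterozygous cells without feeders. None of the 25 was listed at 0 on any array.

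Cdx2 and Gata3 fell on feeders, and both read highest in null-labelled cells without feeders. Cdx2, the homeobox factor that establishes trophectoderm, read 4.9 in null-labelled and 2.1 in heterozygous cells on feeders, against 82.2 in null-labelled and 17.1 in heterozygous cells without feeders (1422075_at). Gata3, a zinc finger factor that acts beside CDX2, read 9.2 in null-labelled and 4.0 in heterozygous cells on feeders, against 49.2 in null-labelled and 23.7 in heterozygous cells without feeders (1448886_at). Both genes were lower on feeders in both genotypes, as 30.1% of all tested genes were. Within each culture condition the array labelled null was the higher one, as for 30.5% of all tested genes. On feeders that order rests on signals under 9.46.

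The upstream 250 bases of these 2 genes are shown because they were the members that changed together. The sequences are from the RefSeq promoter table of build GRCm38.p6, run 5′ to 3′ on the gene's strand and end at the base before the annotated start. That for Cdx2 covers chr5:147307250-147307499 on the minus strand, and that for Gata3 chr2:9878601-9878850 on the minus strand. Capitals mark matches to the motifs listed after them.
Cdx2: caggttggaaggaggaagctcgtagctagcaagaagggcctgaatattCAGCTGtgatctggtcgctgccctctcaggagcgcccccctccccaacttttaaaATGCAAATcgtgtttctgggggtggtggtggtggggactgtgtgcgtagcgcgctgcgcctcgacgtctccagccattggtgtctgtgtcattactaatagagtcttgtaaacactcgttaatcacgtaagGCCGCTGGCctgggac
Gata3: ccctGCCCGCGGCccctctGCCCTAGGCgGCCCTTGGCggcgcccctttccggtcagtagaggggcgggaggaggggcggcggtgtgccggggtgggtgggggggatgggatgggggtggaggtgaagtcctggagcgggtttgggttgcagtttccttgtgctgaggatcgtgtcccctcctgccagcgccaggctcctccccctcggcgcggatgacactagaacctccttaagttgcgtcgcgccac
In windows of 300 bases, from 250 before to 50 after the start, 9 motifs were searched on both strands: TEAD (GGAATG), the motif AGATAA of the GATA factors, ETS (GGAAGT), AP-2 (GCCNNNGGC), T-box (AGGTGT), CDX (TTTATNG), HAND (CANNTG), the POU octamer (ATGCAAAT) and SOX (ATTGTT). The table held 10 windows for 7 of the members, all but Tfap2c, Hand1 and Tead4. The Cdx2 window held 1 POU octamer, the motif that OCT3/4 can bind, at position -147, as well as 1 AP-2 and 1 HAND motif. The octamer was in 1 of the 10 windows and in 1.74% of all 32851 windows of that length. The Gata3 window held 3 AP-2 motifs, which do not overlap each other, and a HAND motif at position -1 that reaches past the bases shown. AP-2 motifs were in 3 of the 10 windows and in 16.6% of all windows, and HAND motifs in 5 of the 10 and in 72.3% of all. TEAD motifs were in 2 of the 10 (14.7% of all) and T-box motifs in 2 (13.7% of all). Motifs for GATA (11.2% of all windows), ETS (23.8%), CDX (10.9%) and SOX (10.7%) were in 0 of the 10. These matches are letters in a window and were not measured as binding.

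The feeder difference was tested on log2(signal + 4.6) with limma in 1 model of genotype and feeders over 12485 genes. Cdx2 had a log2 difference of -2.44 on feeders (SE 0.45, limma adjusted p = 0.043), and Gata3 of -1.84 (SE 0.31, limma adjusted p = 0.0341). These were 2 of 9 tested members, and 0 rose. Over all tested genes 0.881% fell and 3.88% rose, but nothing is read from the members' count against these shares, since both genes passed the limit for testing through the 2 arrays without feeders alone: all their signals on feeders lay under 9.46. The size of these log2 differences depends on the offset, at -3.18 to -1.50 for Cdx2 and -2.30 to -1.14 for Gata3 over the offsets tried. Folds are ratios of signals with the offset of 4.6 added. On that scale, by pairs of arrays, Cdx2 was 9.14-fold lower on feeders in null-labelled cells and 3.24-fold lower in heterozygous cells, and Gata3 3.90-fold and 3.29-fold lower. By the probe set that stands for each gene, no other tested member was 2-fold lower on feeders in either genotype, and 0 were 2-fold higher. Among all tested genes 2.47% were 2-fold lower and 6.64% higher in null-labelled cells, and 1.79% lower and 8.03% higher in heterozygous cells. At an unadjusted p under 0.05, 3 members were lower on feeders and 1 higher, against 7.77% and 14.1% of tested genes. In these bulk cultures fewer cells that express a gene and less RNA per cell cannot be told apart, and a share of the RNA on feeders is that of fibroblasts. Both calls were lost with no filter (adjusted p = 0.102 for Cdx2 and 0.0878 for Gata3) and with a model of feeders alone (0.173 and 0.135), and that of Cdx2 with a larger offset (0.0737) or no variance trend (0.117). With any 1 array left out, which needs the smaller model, Cdx2 passed only without the heterozygous array lacking feeders (0.0162) and Gata3 in no case.

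**Figure D1:**
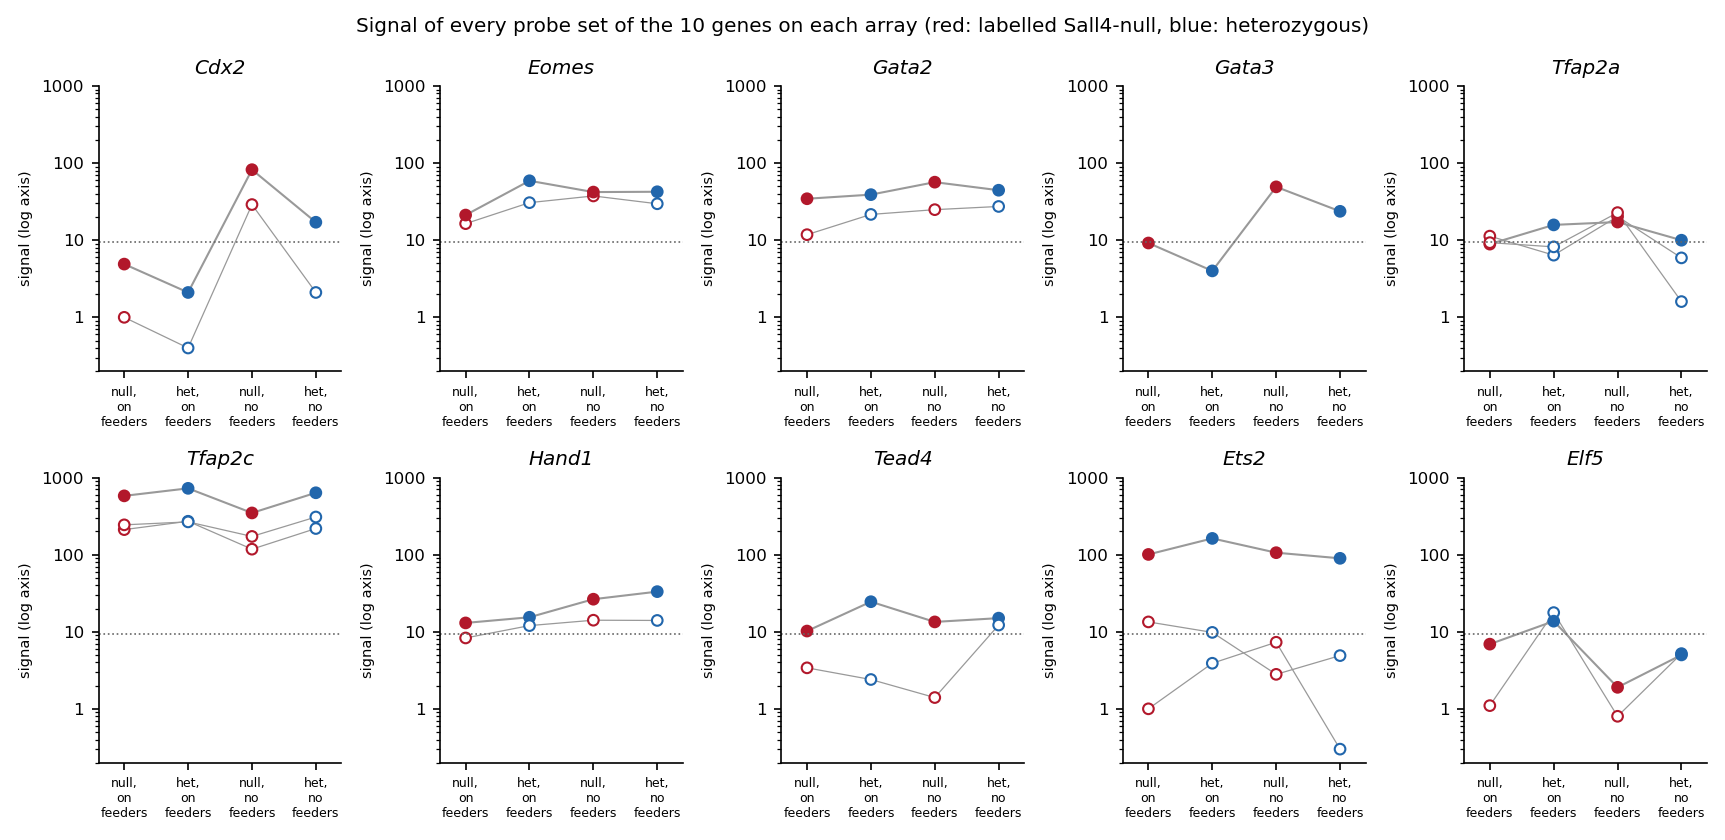
Signal of all 22 probe sets of the 10 genes on the 4 arrays, on a log axis; red points are cells labelled Sall4-null, blue points heterozygous cells, filled points the probe set that stands for the gene, and lines join the points of 1 probe set. The dotted line is a signal of 9.46; Cdx2 and Gata3 lie under it on both feeder arrays and over it without feeders with their filled points, while Tfap2c lies far over it on every array.

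The genotype difference did not pass for any member. In the test over all genes 0 of 9 tested members changed, where 0.032% of tested genes did, 4 genes that all fell. At an unadjusted p under 0.05, Cdx2 and Gata3 were higher and Tfap2c lower in cells labelled null, against 5.8% of all tested genes higher and 6.5% lower. Cdx2 had a fitted log2 difference of 1.25 (SE 0.45, limma adjusted p = 0.363). Without feeders it was 4.00-fold higher in null-labelled cells, but on feeders both signals lay under 9.46 and the ratio was 1.42. The other Cdx2 probe set, 1422074_at, read 1.0 in null-labelled and 0.4 in heterozygous cells on feeders, and 29.0 in null-labelled and 2.1 in heterozygous cells without feeders. Both probe sets therefore had their high signal on the same array. Gata3 had a fitted difference of 0.80 (SE 0.31, limma adjusted p = 0.385), and was 1.90-fold higher without feeders, while both its signals on feeders lay under 9.46. A description by size asked for a 2-fold or larger difference with 1 sign on and off feeders, where the higher signal of every pair exceeds 17.1, the median. No member met it between genotypes, against 0.328% of tested genes that were higher and 0.785% that were lower, 1.11% in all. Cdx2 was the 1 member at least 2-fold higher without feeders, where 4.21% of tested genes were at least 2-fold higher and 3.26% lower.

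Fibroblast markers differed in the same direction as Cdx2 between genotypes without feeders. Of the 25, 14 were at least 2-fold higher and 0 lower in null-labelled cells without feeders, at a median log2 difference of 1.18, against 0.0029 over all tested genes. On feeders their median was 0.47. Their sums of 7536 in null-labelled and 3421 in heterozygous cells without feeders stand beside the Cdx2 signals of 82.2 and 17.1 in those cultures. On feeders, where the sums were several times larger, Cdx2 read 4.9 in null-labelled and 2.1 in heterozygous cells. The part of fibroblast RNA in the genotype differences was not tested.

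**Figure D2:**
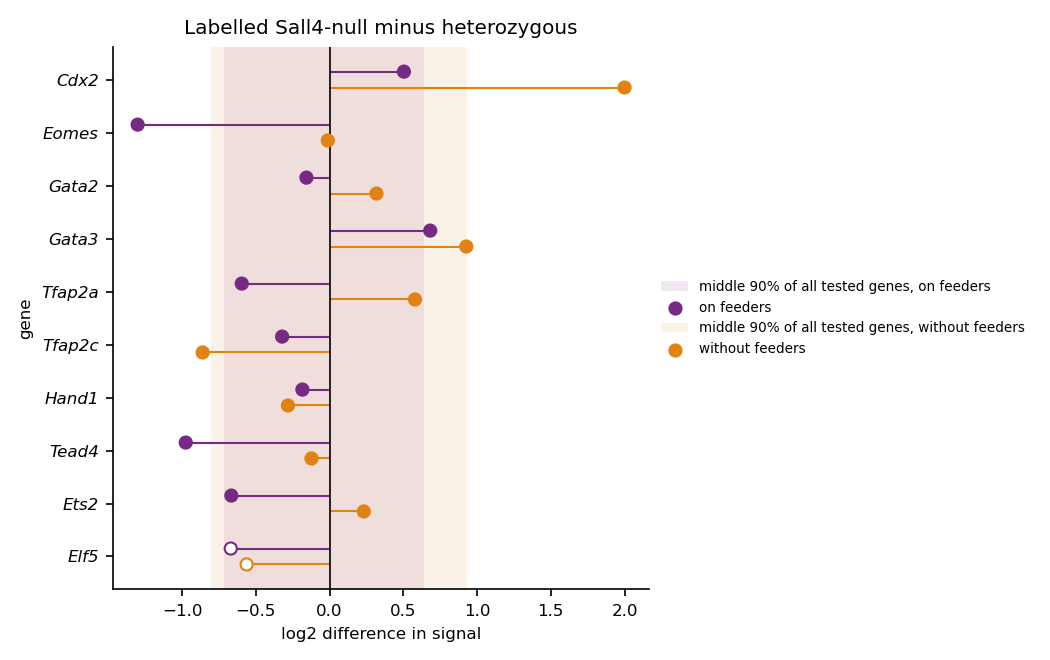
Log2 difference of cells labelled Sall4-null minus heterozygous cells for each of the 10 genes, on feeders (purple) and without feeders (orange), 1 array against 1; shaded bands span the middle 90% of all tested genes and open points are the untested Elf5. Cdx2 without feeders, at 2, and Eomes on feeders, at -1.30, lie farthest outside the bands, on opposite sides.

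Tfap2c read lower in null-labelled cells with all of its probe sets. It encodes an AP-2 factor that trophoblast stem cells need and that is also made in ES and germ cells. Probe set 1436392_s_at read 577.9 in null-labelled and 723.5 in heterozygous cells on feeders, and 347.0 in null-labelled and 633.8 in heterozygous cells without feeders. All 3 Tfap2c probe sets read lower in null-labelled cells in both conditions, by 1.09-fold to 1.28-fold on feeders and 1.77-fold to 1.82-fold without. The fitted log2 difference of -0.59 (SE 0.17, limma adjusted p = 0.287) did not pass. By feeders it was 0.46 (SE 0.17, limma adjusted p = 0.199), with 1 of the 3 probe sets, 1448977_at, lower on feeders in heterozygous cells.

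Tead4, which encodes the DNA-binding partner of YAP upstream of Cdx2, stayed at low signals. Probe set 1426337_a_at read 10.2 in null-labelled and 24.5 in heterozygous cells on feeders, and 13.4 in null-labelled and 15.0 in heterozygous cells without feeders. The heterozygous array on feeders was the highest, with little between the other three. The fitted genotype difference was -0.55 (SE 0.36, limma adjusted p = 0.595). Its other probe set, 1460683_at, exceeded 9.46 on 1 array, heterozygous cells without feeders, at 12.2.

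By the probe sets that stand for them, Eomes and Ets2 also read lower in null-labelled cells on feeders, at sizes that did not pass. Eomes, a T-box factor, read 21.2 in null-labelled and 59.0 in heterozygous cells on feeders, but 42.1 in null-labelled and 42.5 in heterozygous cells without feeders (1435172_at). Only the feeder pair was apart, at 2.46-fold lower, and the fitted difference was -0.66 (SE 0.35, limma adjusted p = 0.519). Eomes was the 1 member at least 2-fold lower on feeders between genotypes, a size that 2.21% of tested genes reached; 1.52% were as much higher, and 0 members. Its second probe set, 1426001_at, was 1.68-fold lower in that pair and 1.23-fold higher without feeders. Ets2, an ETS factor of trophoblast stem cell maintenance, read 100.5 in null-labelled and 162.2 in heterozygous cells on feeders, and 105.9 in null-labelled and 89.5 in heterozygous cells without feeders (1416268_at). Here too the heterozygous array on feeders was the highest. The remaining 2 Ets2 probe sets, both marked x_at for possible binding to several transcripts, had signals between 0.3 and 13.4.

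Elf5, an ETS factor that with CDX2 and EOMES holds the trophoblast fate, was the 1 member with too low a mean signal to be tested. Probe set 1419556_at read 6.9 in null-labelled and 13.7 in heterozygous cells on feeders, and 1.9 in null-labelled and 5.0 in heterozygous cells without feeders. Probe set 1419555_at read 1.1 in null-labelled and 17.7 in heterozygous cells on feeders, and 0.8 in null-labelled and 5.2 in heterozygous cells without feeders. Both exceeded 9.46 on the same single array, heterozygous cells on feeders. There the probe sets that stand for Tead4, Eomes, Ets2 and Tfap2c also read highest. The second Eomes probe set read highest in null-labelled cells without feeders. The second of Tead4 and Tfap2c probe set 1448977_at read highest in heterozygous cells without feeders.

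Hand1, a basic helix-loop-helix factor of trophoblast giant cells that mesoderm also uses, read 13.0 in null-labelled and 15.4 in heterozygous cells on feeders, against 26.4 in null-labelled and 33.1 in heterozygous cells without feeders (1417525_at). Both feeder arrays were the lower ones, as for Cdx2 and Gata3, but the fitted feeder difference of -0.87 (SE 0.28, limma adjusted p = 0.156) did not pass. Gata2, a zinc finger factor of placental hormone genes that blood cells also use, read 34.5 in null-labelled and 39.0 in heterozygous cells on feeders, and 56.6 in null-labelled and 44.5 in heterozygous cells without feeders (1450333_a_at). Its feeder difference was -0.41 (SE 0.24, limma adjusted p = 0.381). Both Gata2 probe sets were lower on feeders in both genotypes, and they disagreed on the genotype difference without feeders. Tfap2a, an AP-2 factor shared with surface ectoderm and neural crest, had 3 probe sets with signals between 1.6 and 22.8. Each Tfap2a probe set read highest on the array of null-labelled cells without feeders, at 20.3, 17.2 and 22.8, and 1426048_s_at read 1.6 in heterozygous cells without feeders. The one that stands for the gene had a fitted genotype difference of -0.0086 (SE 0.41, limma adjusted p = 0.994), since its pairs pointed opposite ways.

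By direction alone, 8 of 9 tested members read lower on feeders in null-labelled cells, the exception being Tfap2c, and 4 of 9 in heterozygous cells. Over all tested genes 46.0% were lower on feeders in null-labelled cells and 46.9% in heterozygous cells. The pairs share arrays with the genotype pairs, so these counts are not separate evidence. The medians of the tested members were -0.69 in null-labelled and 0.19 in heterozygous cells, against 0.04 and 0.03 over all tested genes. Between genotypes, 7 of 9 were lower in null-labelled cells on feeders and 4 of 9 without feeders, against 48.8% and 49.6% of all tested genes. In both conditions 4 of 9 were lower (29.1% of all tested genes), 2 higher (30.5%) and 3 opposite (39.9%). By feeders 4 of 9 were lower in both genotypes (30.1% of all tested genes), 1 higher (37.1%) and 4 opposite (32.4%). Cdx2 and Gata3 are among the members lower on feeders, and both passed the limit for testing through their arrays without feeders alone. Nothing is therefore read from the feeder counts and medians above against those of all tested genes. By the size description 1 member, Gata3, was lower on feeders (0.529% of tested genes) and 0 were higher (3.96%). Nothing is read from that count against the share, since Gata3 passed the limit for testing through its arrays without feeders alone.

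**Figure D3:**
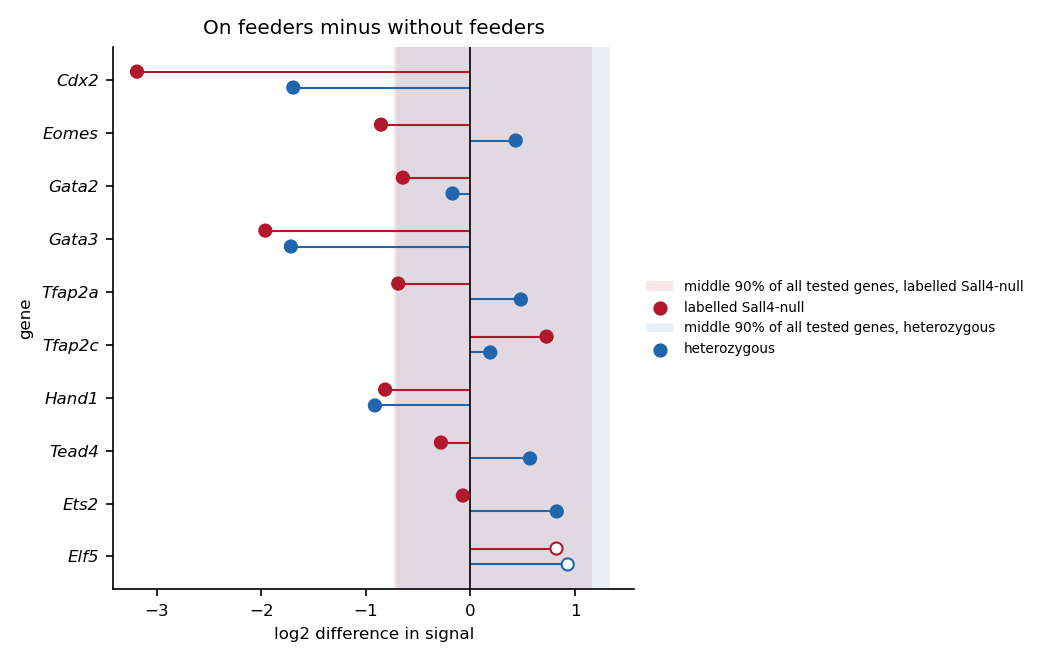
Log2 difference of cells on feeders minus cells without feeders for each of the 10 genes, in cells labelled Sall4-null (red) and heterozygous cells (blue), 1 array against 1; shaded bands span the middle 90% of all tested genes and open points are the untested Elf5. Cdx2, at -3.19 and -1.70, and Gata3, at -1.96 and -1.72, lie below the bands in both genotypes, and Hand1, at -0.82 and -0.91, just below them.

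The genes whose profile over the 4 arrays was most like that of Cdx2, by the distance between log2 values centred on each gene's mean, were Ifi202b, Nrk, Coch, Gkn2 and Plac1, at distances of 0.33 to 0.87. Ifi202b read 3.4 in null-labelled and 1.1 in heterozygous cells on feeders, against 90.6 in null-labelled and 13.4 in heterozygous cells without feeders. Gata3 was the nearest other member, at a distance of 0.98 with 10 of 11861 other genes nearer. Seen from Gata3, 66 other genes were nearer than Cdx2. Nearest to Gata3 were Gkn2, Sema3e, Sema3f, Actc1 and Dusp14, at distances of 0.14 to 0.45. Of the remaining tested members Hand1 was the next nearest to both, with 560 other genes nearer to Cdx2 and 437 nearer to Gata3. With 4 arrays many genes share any given profile, so the ranks are a description.

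Of 16 markers of trophoblast cells read, 14 were tested, and by feeders 3 fell and 1 rose, against 0.881% and 3.88% of tested genes. Krt8 and Krt18, which encode the keratins of simple epithelia such as trophectoderm, fell by 2.88 (SE 0.17, limma adjusted p = 0.00143) and 2.42 (SE 0.27, limma adjusted p = 0.00961) on the log2 scale. Krt8 read 106.6 in null-labelled and 128.1 in heterozygous cells on feeders, against 932.8 in null-labelled and 847.1 in heterozygous cells without feeders. Plac1, a placental gene, fell by 1.75 (SE 0.30, limma adjusted p = 0.037), and Plac8, singled out after its values were seen, rose by 1.29 (SE 0.20, limma adjusted p = 0.0244). By genotype Plac1 read highest where Cdx2 did, at 22.0 in null-labelled and 6.6 in heterozygous cells on feeders, and 112.7 in null-labelled and 24.1 in heterozygous cells without feeders. Wnt7b and Rhox9 had fitted genotype differences of -1.50 each that did not pass. The list's median genotype difference was -0.57, against 0.0090 over all tested genes, and 0 of 14 passed the test by genotype. By the size description, however, 4 of the 14 were lower and 1 higher in null-labelled cells. Of all tested genes 0.785% were lower and 0.328% higher by it. Of the 16 markers, 12 in null-labelled and 13 in heterozygous cells exceeded 9.46 on feeders, and 14 in each without feeders. Tpbpa, a marker of the spongiotrophoblast, read 3.7 to 4.9, and Ctsq, of giant cells, 0.4 to 1.2, both under 9.46 on every array.

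**Figure D4:**
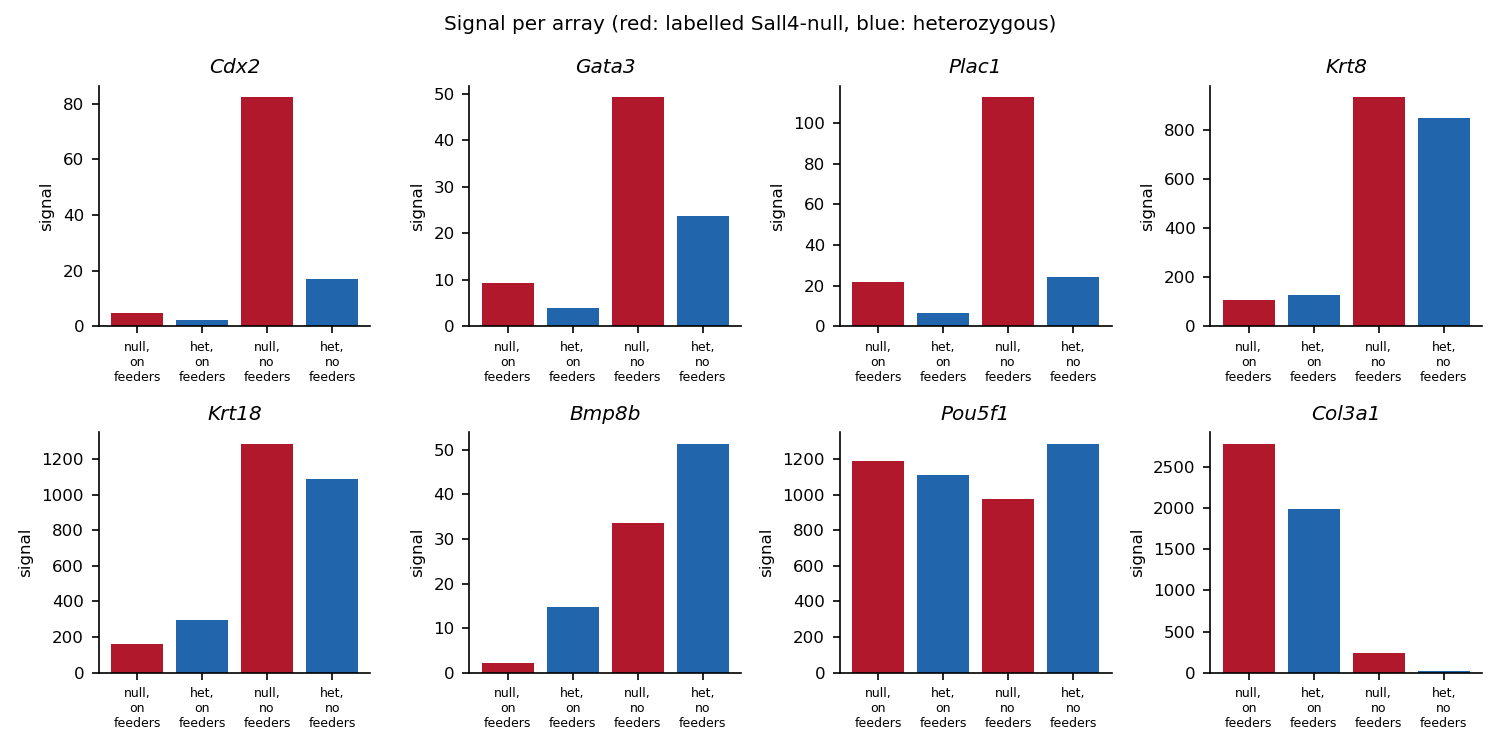
Signal per array, on linear axes that start at 0, of Cdx2 and Gata3 beside trophoblast genes (Plac1, Krt8, Krt18), the BMP ligand gene Bmp8b, Pou5f1 and the fibroblast collagen gene Col3a1; red bars are cells labelled Sall4-null and blue bars heterozygous cells. Cdx2, Gata3, Plac1, Krt8, Krt18 and Bmp8b are lower on feeders in both genotypes, Col3a1 is higher, and Pou5f1 lies between 977 and 1284. The 3 trophoblast genes drawn are those of 14 tested trophoblast markers that fell by feeders, and Plac8, which rose, is not drawn.

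Relatives of the members gave no call. Of 21 read, 12 were tested, and 0 changed by genotype or by feeders, with medians of 0.05 and -0.16. Over all tested genes 0.032% changed by genotype, and by feeders 3.88% rose and 0.881% fell. The same shares stand beside every list below. Ets1, a relative of Ets2, read 84.7 in null-labelled and 80.1 in heterozygous cells on feeders, and 523.3 in null-labelled and 117.8 in heterozygous cells without feeders. The array with the highest Cdx2 thus had the highest Ets1 as well, at a fitted genotype difference of 1.09 (SE 0.46, limma adjusted p = 0.421). Cdx1 read 12.7 in null-labelled cells without feeders and 0.5 to 3.4 on the other arrays, and Cdx4 4.0 at most, so Cdx2 was the Cdx gene that passed 9.46 on more than 1 array. Tead1, which can act with YAP as TEAD4 does, read 813.3 in null-labelled and 891.7 in heterozygous cells on feeders, and 1068 in null-labelled and 845.4 in heterozygous cells without feeders. Cdx1, Cdx4 and Tead1 were named after their values were seen.

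Upstream of these factors, 20 genes of the Hippo pathway, cell polarity and Notch signalling were tested, and 0 changed by genotype. Wwtr1, which encodes the YAP relative TAZ, had a genotype difference of 0.69 (SE 0.18, limma adjusted p = 0.254), and the kinase gene Lats2 of 0.74 and the TEAD cofactor gene Vgll4 of 0.94 did not pass either. By feeders 1 of the 20 fell, against 0.881% of all tested genes: the receptor gene Notch2, with a log2 difference of -0.81 (SE 0.15, limma adjusted p = 0.0431), named after its values were seen. Among 12 genes of the FGF, activin and BMP signals that trophoblast stem cells use, 1 rose and 1 fell by feeders, against 3.88% and 0.881% of all tested genes. Inhba, which encodes an activin subunit that fibroblasts supply, rose by 2.71 (SE 0.39, limma adjusted p = 0.0205), and Bmp8b fell by 2.02 (SE 0.36, limma adjusted p = 0.0382). Bmp8b read 2.1 in null-labelled and 14.7 in heterozygous cells on feeders, against 33.5 in null-labelled and 51.3 in heterozygous cells without feeders. By genotype 0 of the 12 changed. Fgf4, which encodes the ligand that sustains trophoblast stem cells, read 167 in null-labelled and 516.3 in heterozygous cells on feeders, and 103.3 in null-labelled and 400.5 in heterozygous cells without feeders. It was the 1 gene of these that met the size description by genotype, at 3.04-fold lower on feeders and 3.75-fold lower without, and its fitted difference of -1.76 (SE 0.17, limma adjusted p = 0.0839) did not pass. By that description 0.785% of all tested genes were lower and 0.328% higher.

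Of 22 tested transcription factors that also act in trophoblast, 1 rose and 1 fell by feeders, against 3.88% and 0.881% of all tested genes, and 0 changed by genotype. Id2, an inhibitor of helix-loop-helix factors expressed in early trophectoderm, fell by 1.54 (SE 0.24, limma adjusted p = 0.0277), and Nr2f2 rose by 1.81 (SE 0.31, limma adjusted p = 0.0361). Id2 read 102.3 in null-labelled and 139.7 in heterozygous cells on feeders, against 413 in null-labelled and 307.5 in heterozygous cells without feeders. A list of 21 genes was put together as ES cell repressors of trophectoderm genes, with Pou5f1, Nanog, Sall4 and subunits of chromatin complexes. All were tested, and 0 changed by genotype, at a median of 0.0067. Their role in these cells was not tested. Nanog had a genotype difference of -0.53 (SE 0.091, limma adjusted p = 0.152) and Sall4 of 0.73 (SE 0.12, limma adjusted p = 0.152). By feeders 1 of the 21 fell, against 0.881% of all tested genes: the NuRD helicase gene Chd4, with a log2 difference of -0.87 (SE 0.17, limma adjusted p = 0.0483).

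Since Cdx2, Eomes, Hand1 and Gata2 are also made in early mesoderm, 16 markers of the primitive streak and mesoderm were read, of which 7 were tested. By genotype 0 changed, and by feeders 1 of the 7 fell, against 0.881% of all tested genes: the receptor gene Kdr, with a log2 difference of -1.99 (SE 0.34, limma adjusted p = 0.037). On feeders the summed signal of the 16 was 490.5 in null-labelled and 785.8 in heterozygous cells. Without feeders it was 692.3 in null-labelled and 722.2 in heterozygous cells. Most of each sum came from Bmp4, so the sums say little about the other markers. Bmp4 read 383.7 in null-labelled and 670 in heterozygous cells on feeders, and 499.2 in null-labelled and 568.7 in heterozygous cells without feeders. Of the 16, 6 in null-labelled and 4 in heterozygous cells exceeded 9.46 on feeders, and 9 and 8 without feeders. Among those with low signals, Mixl1 read 0.7 in null-labelled and 1.9 in heterozygous cells on feeders. Without feeders Mixl1 read 10.7 in null-labelled and 21.0 in heterozygous cells. Tbx6, Msgn1 and Lhx1 lay under 9.46 on every array. None of the 16 was listed at 0.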

How the data were processed

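Total RNA was labelled as biotin-cRNA and hybridised to 1 Affymetrix array per culture, 4 in all. The deposited intensity values are linear MAS5 signals for 45101 probe sets, per the submitters' processing notes, which give no version; the authors' table holds no detection calls. The trimmed mean (2% at each end) was 100 on each array, so no scaling was added. The 64 control probe sets were left out. The platform annotation gave 34945 probe sets 1 symbol, 932 several and 9160 none; only the first were used.

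Signals were taken as log2(signal + 4.6), the offset being their 25th percentile, and where a gene had several probe sets the one brightest on average stood for it. Genes under the 40th percentile of mean log2 signal of all probe sets (3.81, a signal of 9.46) were not tested. limma 3.58.1 in R 4.3.3 (lmFit, eBayes with trend) fitted genotype and feeder terms over 12485 genes, two-sided, with Benjamini-Hochberg adjustment over all of them at 0.05. The residual had 1 degree of freedom per gene, which is how far the genotype effect differs with and without feeders, plus 4.75 prior ones, so p-values do not measure spread between replicate cultures. The number of arrays limits the precision. The code was tested on simulated data. Pairs of single arrays carry no test.

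Members and gene lists were chosen with earlier results of these data known. Of 208 listed genes, 198 were found by symbol or synonym. Named genes were the members and, per list, up to 3 tested genes with the largest genotype and 2 with the largest feeder differences. Some exceptions are marked in the text. Tpbpa, Ctsq, Mixl1, Tbx6, Msgn1 and Lhx1 also fall outside that rule, since they were not tested. Likeness used tested genes with a signal above the median. Promoters are from RefSeq's table, read in Python 3.11.15. Alternatives covered the offset, filter, normalization, probe set choice, variance model, covariates, fold size and each array left out.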

Additional observations from a re-analysis of the deposited data

Results flagged for a closer look

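The genotype difference had opposite signs on and without feeders in 3 of 9 tested members, against 39.9% of all tested genes, and the feeder difference had opposite signs in the genotypes in 4 of 9, against 32.4%. Each pair is 1 array against 1, and the change between pairs was not tested. The counts, and the values of each gene below unless said otherwise, are those of the probe set that stands for the gene. Other probe sets of these genes did not all share the signs. For Eomes the feeder difference was -0.86 in null-labelled and 0.43 in heterozygous cells, a gap of -1.29. Ets2 had feeder differences of -0.07 in null-labelled and 0.83 in heterozygous cells, and genotype differences of -0.67 on feeders and 0.23 without, a gap of -0.90 on either axis. Tfap2a had genotype differences of -0.60 on feeders and 0.58 without, and feeder differences of -0.69 in null-labelled and 0.48 in heterozygous cells, a gap of -1.17 on either axis. Tead4 had feeder differences of -0.28 in null-labelled and 0.57 in heterozygous cells, a gap of -0.85. Gata2 had genotype differences of -0.16 on feeders and 0.32 without, a gap of -0.475. Both further Tfap2a probe sets were higher in null-labelled cells in both conditions, while their feeder signs matched those above. The second Gata2 probe set was lower in null-labelled cells in both, at -0.68 on feeders and -0.12 without. The second of Tead4 had feeder differences of 0.42 in null-labelled and -1.26 in heterozygous cells. That of Eomes shared the feeder signs, as did Ets2 probe set 1437809_x_at, while Ets2 probe set 1447685_x_at did not.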

How the results depend on the processing

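The count of genes called by genotype, 4, became 0 with no filter, a model of 1 factor, no variance trend or a filter at the 60th percentile, 7 with quantile normalization or median centring, and 14 over every probe set. It was between 0 and 0 with any array left out. The count by feeders, 595, became 269 with no filter, 268 at the 60th percentile, 384 with the mean of probe sets, 1354 over every probe set, 183 with no variance trend, 231 with 1 factor and between 23 and 534 with an array left out. No member was called by genotype or met the size rule by genotype under any alternative run. The 2 members called by feeders became 1 with the offset at the median signal, the mean of probe sets or no variance trend, 0 with no filter, the 60th percentile or 1 factor, and between 0 and 1 with an array left out. At the 60th percentile neither Cdx2 nor Gata3 was tested, and with the mean of probe sets Cdx2 was not, since fewer genes enter. Runs with an array left out used the model of 1 factor, which called 0 members with all arrays. The log2 feeder difference stayed below 0 in all settings run, for Cdx2 between -3.44 and -1.44 (adjusted p = 0.0162 to 0.513) and for Gata3 between -2.30 and -1.14 (adjusted p = 0.0211 to 0.468). By the size rule 1 member, Gata3, was lower on feeders in both genotypes (0.529% of tested genes). Nothing is read from this, since Gata3 passed the limit for testing through its arrays without feeders alone. Cdx2 missed the rule because its heterozygous signal of 17.1 equals the median. The count of members past the rule was 0 with the offset at the median signal or the 60th percentile. It was 2 with quantile normalization, median centring or a 1.5-fold limit. Between genotypes the fitted sign turned for Tfap2a with the offset at the median signal (1.7e-04), and with the mean of probe sets for Ets2 (0.034), Gata2 (-0.16) and Tfap2a (0.67). With an array left out genotype differences spanned -0.34 to 2.85 for Cdx2, -0.18 to 1.79 for Gata3, -0.24 to 0.40 for Gata2, -0.69 to 0.22 for Hand1, -0.63 to 0.20 for Ets2 and -0.35 to 0.34 for Tfap2a, and feeder differences -0.40 to 0.19 for Tfap2a, -0.34 to 0.63 for Tead4 and -0.86 to 0.44 for Eomes. The cause was not tested. No paired analysis was possible because each group held 1 array, so replicate numbers pair nothing; the model takes each effect within the levels of the other factor. Low signals without detection calls limit Elf5, Tfap2a and Tead4.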

Other observations

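Lists of other cell types that can make the members were read for the same arrays, where 3.88% of all tested genes rose and 0.881% fell by feeders. Of 6 tested markers of surface ectoderm and neural crest, where Tfap2a and Tfap2c act, 1 fell by feeders, the epithelial gene Sfn, with a log2 difference of -1.43 (SE 0.24, limma adjusted p = 0.0346), and 0 changed by genotype. Their summed signal was 317.3 in null-labelled and 309.8 in heterozygous cells on feeders, and 556.7 in null-labelled and 642.9 in heterozygous cells without feeders. Of 7 tested blood and endothelium markers, 1 rose by feeders, the macrophage lysozyme gene Lyz2, by 4.14 (SE 0.30, limma adjusted p = 0.00285), and 0 changed by genotype. Pecam1, which ES cells make as well, had a genotype difference of -1.16 (SE 0.23, limma adjusted p = 0.182).

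Of 13 tested primitive endoderm markers, 1 rose by feeders, Pdgfra, which fibroblasts also express, and 0 changed by genotype. The list's median genotype difference was -0.45 on feeders and -0.05 without, and the yolk sac receptor genes Amn and Cubn had fitted differences of -1.33 and -1.05 that did not pass. Gata6 and Gata4, relatives of Gata3 that specify this lineage, had feeder differences of -0.88 and -0.68 that did not pass. Of the fibroblast markers, 23 of 25 rose on feeders, at a median of 4.30.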
